A study of Drosophila melanogaster with 20 samples.

Results

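Young male heads of flies carrying a mutant copy of chameau (chm) were compared with young wild-type heads over all genes of the deposited table. The group means compared were those of 11 of the study's 20 libraries, 6 of young chm/+ flies and 5 of young wild type, all at 7 days of age. Each library held RNA from 25 to 30 pooled heads of males kept in mixed-sex populations, from which polyadenylated RNA was sequenced as 50 bp single reads. The other 9 libraries, 5 of chm/+ and 4 of wild type at 22 to 23 days (midlife), entered the estimate of the spread between libraries, which all 20 shared, and gave the same genotype difference at a later age. The chm allele, the genetic background of the wild-type line and whether libraries came from separate cultures are things that the sources used here do not give, so the p values measure the spread between these libraries, which may in part be technical. An effect of the chm lesion and an effect of other differences in genetic background cannot be told apart in this design.

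chm codes for one of the MYST histone acetyltransferases, enzymes that transfer an acetyl group from acetyl-CoA to lysines of histone tails. In flies, chm has been linked to Polycomb silencing, to heterochromatic position-effect variegation, to transcription by the AP-1 factors of the JNK pathway and to the use of replication origins. The adult head holds brain neurons and glia, the retina with its photoreceptors and pigment cells, a fat body that surrounds the brain, muscle, and the cuticle with its sensory bristles. In RNA from whole heads, fewer cells of a type and less RNA per cell cannot be told apart.

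Values are the authors' normalized counts, whose totals lay between 27572012 and 30470376 per young library. Read depth is unknown, so the errors given are the spread between libraries. Log2 changes are young chm/+ minus young wild type on log2(value + 14.48), an addend that equals 0.5 CPM and understates the change of weakly expressed genes. The 9831 genes were tested with limma, a gene was called where its Benjamini-Hochberg adjusted p was under 0.05, and every adjusted p below is from limma.

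The head identity of the libraries was read from marker genes. All 8 neuronal, all 8 photoreceptor, 8 of 9 glial and 9 of 10 fat body markers were measured, none of those measured was at 0 in any young library, and 0 of 13 accessory gland markers were in the table. Of markers of other body parts, 1 of 11 testis, 1 of 9 ovary and egg and 4 of 17 gut genes were measured, and none was called. CHMy2 and 2uy3 stood apart from their groups in a few genes. The yolk protein gene Yp1 was at 2716 normalized counts in CHMy2, against 90.8 to 317 in the other chm/+ and 155 to 945.3 in the wild-type libraries, and Yp2 and Yp3 were also highest in CHMy2, at 1413 and 4783. The antimicrobial peptide genes AttA and DptB were at 9439 and 3199 in 2uy3, against 329 to 2228 and 24.2 to 419 in the other wild-type libraries. The principal components of the 11 young libraries showed a split that the labels do not name. The first 10 and the last 10 columns of the table, called column sets here, each hold all groups, and the first component (55.8% of the variance) placed CHMy2, CHMy3, CHMy4, 2uy1, 2uy2 and 2uy3 of the first set between -25.68 and -4.8, and CHMy1, CHMy11, CHMy12, 2uy4 and 2uy5 of the second between 12.79 and 31.37. The second component (12% of the variance) separated the genotypes, with chm/+ libraries between 3.82 and 16.66 and wild-type libraries between -13.15 and -2.16. For named genes whose log2 change differed by more than 0.5 between the sets, both values are given.

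**Figure D1:**
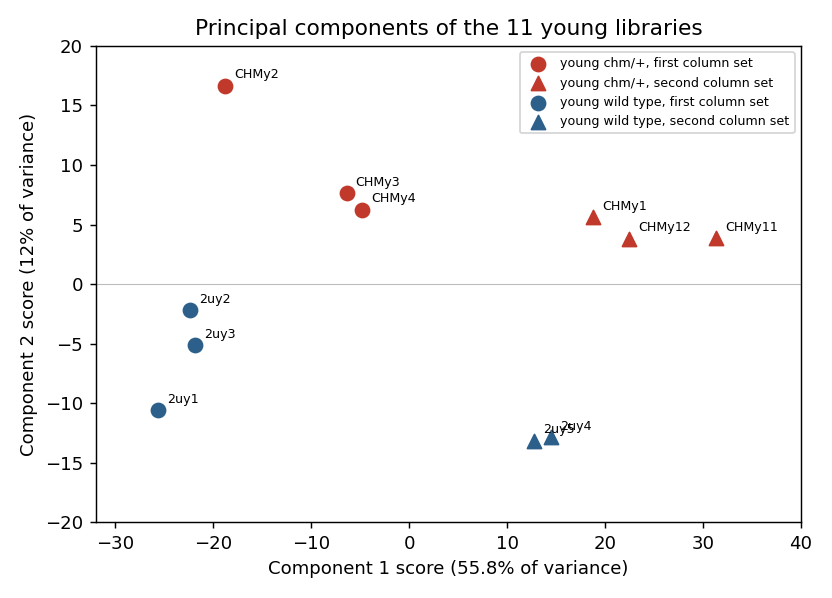
Scores of the 11 young libraries on the first principal component (x axis, 55.8% of the variance) and the second (y axis, 12%), red for chm/+ and blue for wild type, circles for the first column set and triangles for the second. The sets part along x without overlap, and the genotypes part along y, with chm/+ between 3.82 and 16.66 and wild type between -13.15 and -2.16.

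chm itself (FBgn0028387) was lower in every young chm/+ library than in any wild-type one. Its lowest, median and highest values were 283, 323 and 351 normalized counts in chm/+ heads, against 676, 589.6, 588, 622 and 602 in the wild-type heads 2uy1 to 2uy5. The groups did not overlap, and the mean was 321 ± 24.6 in chm/+ (SD, n = 6) against 615 ± 36.6 in wild type (SD, n = 5), the numbers of libraries behind all means of young heads below. This gave -0.91 ± 0.07 on the log2 scale (SE; adjusted p = 9.96e-08). The change was -0.95 in the first column set and -0.87 in the second. The genes measured on either side of chm on chromosome arm 2L did not pass the test, CG5181 with a log2 change of 0.01 (adjusted p = 0.991) and CG5958 with 0.17 (adjusted p = 0.600). Of the 100 measured genes nearest to chm, 50 on each side, 2 were called (2.00%), Slob with -0.33 and CG43322 with 0.34, against 1.45% of all genes tested.

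Between young chm/+ and wild-type heads, 143 of 9831 genes were called (1.45%), 88 higher (0.895%) and 55 lower (0.559%). With the 11 young libraries alone in the fit, 100 were called, 66 higher and 34 lower. Of the 143, 19 had a rise of at least 1 in log2 change (0.193% of all genes) and 14 a fall of at least 1 (0.142%). These changes include the addend, so they understate the fold change of weakly expressed genes. The median log2 change was 0.69 over the genes called higher and -0.60 over those called lower. All chm/+ libraries lay above all wild-type libraries for 70 of the 88, where 1.59% of all genes were so arranged. They lay below them for 42 of the 55, where 1.18% of all genes were. The genes were called from these same libraries, which favours such separation, so these counts are not separate support for the calls. Every called gene had the same sign of change in both column sets, but the sets are parts of the libraries that gave the calls. A shared sign was therefore close to fixed by the choice of genes.

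The number of calls depended on how the libraries were treated. With a term for the set in the model, 394 genes were called (4.01%), 261 of them higher (2.65%) and 133 lower (1.35%), and these held all 143. That term in the young libraries alone gave 890 calls (568 higher, 322 lower), and weighting each library by its fit gave 3194, split almost evenly into 1614 higher and 1580 lower. The first set alone gave 290 calls, 101 of them among the 143, and the second set alone gave 19, of which 17 were among the 143. Without CHMy2 and 2uy3, the libraries named above, 83 genes were called, 82 of them among the 143, and without 2uy1 alone 91 were called. The cause of these differences in number was not tested.

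**Figure D2:**
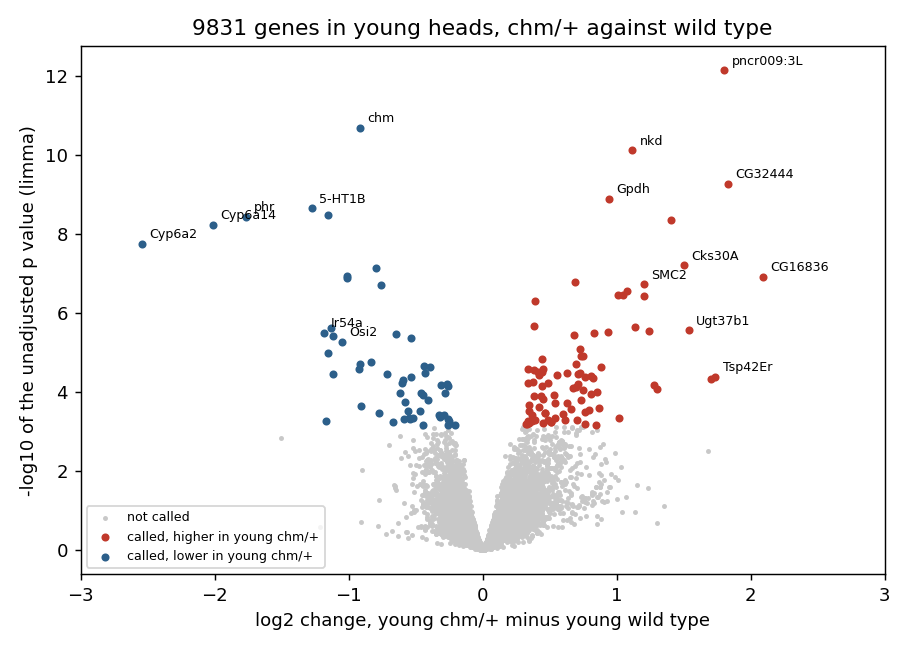
Each point is 1 of 9831 genes, with its log2 change in young chm/+ minus young wild-type heads on x and -log10 of its unadjusted limma p on y. Red points are the 88 genes called higher, blue points the 55 called lower, and chm, with a log2 change of -0.91, is among the most clearly separated on the left.

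The called genes were spread over the autosomes, with few on the X. The share of measured genes called was 1.80% on 2L (31 of 1726), 1.85% on 2R (36 of 1945), 2.02% on 3L (37 of 1828), 1.39% on 3R (33 of 2371) and 1.16% on the 4th chromosome (1 of 86), against 0.311% on the X (5 of 1606). With the set term the share was again lowest on the X among these arms, with 1.06% against 3.92% to 5.19% on the large autosomal arms. No test was made of this difference. In 10 pairs of called genes no measured gene lay between the members, and 9 of these pairs changed in the same direction. They include neighbours in the cluster of Lcp65Ag1, Lcp65Ag2, Lcp65Ag3 and Cpr65Au, Cyp6a14 with Cyp6a15Psi, and the overlapping Sur and CG31874. Reads may be shared between some of these copies or overlapping genes. In the annotation 42 of the 143 called genes overlap another measured gene, 31 of them on the opposite strand, and strand use in counting is not stated. Neither the share of neighbouring pairs nor that of overlapping genes was computed over all genes.

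Among the genes that fell, the lowest log2 changes belonged to cytochrome P450 genes, whose products oxidise toxins, hormones and dietary compounds. Cyp6a2 (FBgn0000473), a P450 known from insecticide metabolism, had a lowest, median and highest value of 123, 365 and 561 normalized counts in chm/+ heads, against 1824, 2794, 2041, 1773 and 1459.9 in wild-type heads. Every chm/+ library lay well under every wild-type one, and the log2 change was -2.54 ± 0.28 (SE; adjusted p = 1.56e-05), close in the column sets at -2.40 and -2.59.

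Cyp6a14 (FBgn0033302), a further member of the family, had 31.9, 92.5 and 128 normalized counts (lowest, median, highest) in chm/+ heads and 356, 435, 349.5, 350.2 and 396 in wild-type heads. The groups were far apart, with a log2 change of -2.01 ± 0.20 (SE; adjusted p = 5.67e-06; -1.74 in the first column set and -2.28 in the second). Its neighbour Cyp6a15Psi, a pseudogene of the family, averaged 11.3 ± 6.07 in chm/+ and 41.3 ± 12.6 in wild type (SD), with a log2 change of -1.12 (adjusted p = 0.00107; -0.83 in the first set and -1.50 in the second). Reads of these related copies may have been shared between them in counting, so the pseudogene's value is uncertain. The fall was not general to the subfamily: none of Cyp6a8, Cyp6a9, Cyp6a13, Cyp6a17, Cyp6a20, Cyp6a21, Cyp6a22 and Cyp6a23 was called, and Cyp6a17 stood at a log2 change of 0.70 (adjusted p = 0.0625) and Cyp6a8 at 0.38 (adjusted p = 0.115).

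phr (FBgn0003082) encodes the photolyase that uses light to reverse ultraviolet damage in DNA. It had 93.4, 187 and 256 normalized counts (lowest, median, highest) in chm/+ heads and 643, 674, 707, 589 and 498 in wild-type heads. No chm/+ library reached the wild-type range, and the log2 change was -1.76 ± 0.17 (SE; adjusted p = 4.42e-06). phr overlaps Prosalpha1 on the opposite strand, and whether counting used strand is not stated. Prosalpha1 had a log2 change of 0.10 and was not called.

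A serotonin receptor fell as well. 5-HT1B (FBgn0263116), a G protein-coupled receptor, had 302, 328 and 382 normalized counts (lowest, median, highest) in chm/+ heads and 868, 904, 822, 891 and 676 in wild-type heads. The libraries of each genotype were tightly grouped, and the log2 change was -1.27 ± 0.12 (SE; adjusted p = 3.63e-06). 5-HT1B overlaps CG43351 on the opposite strand, and strand use in counting is not stated. CG43351 had a log2 change of -0.51 (adjusted p = 0.426) and was not called. Of the other serotonin receptor genes, looked up after these values were seen, 5-HT2A fell by less, with 2930 ± 263 in chm/+ against 3628 ± 155 in wild type (SD; log2 change -0.31, adjusted p = 0.00831). 5-HT1A (-0.17, adjusted p = 0.316), 5-HT7 (-0.25, adjusted p = 0.210) and 5-HT2B (-0.40, adjusted p = 0.309) did not pass the test. The list of 29 measured synaptic genes had 0 called members in limma and a median log2 change of -0.03. At an unadjusted limma p under 0.05 it held 3, where 15.3% of all genes tested had such a p.

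Both called genes among 30 measured chemoreceptor genes were ionotropic receptors, ligand-gated channels of sensory neurons, and both fell. Ir54a (FBgn0034272) had 9.11, 25.2 and 38.9 normalized counts (lowest, median, highest) in chm/+ heads and 53.7, 85.3, 69.3, 68.2 and 81.9 in wild-type heads, without overlap (log2 change -1.19 ± 0.18, SE; adjusted p = 0.000965). Ir76a (FBgn0260874) had 256, 294 and 328 in chm/+ heads and 510.4, 498, 472, 615 and 502 in wild-type heads, where 2uy4 stood above the other 4. Its log2 change was -0.79 ± 0.09 (SE; adjusted p = 5.47e-05). The called genes were 6.67% of the chemoreceptor list, where 1.45% of all genes tested were called and 0.559% were called lower. The median log2 change of the list was -0.06, against -0.001 over all genes tested.

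Other genes that fell by more than 1 in log2 change came from unrelated families. Osi2 (FBgn0037410), of the Osiris family of transmembrane proteins, had 404, 690.0 and 849.6 normalized counts (lowest, median, highest) in chm/+ heads and 1547, 1632, 1660.1, 1123 and 1001 in wild-type heads, with the lower wild-type values in the second column set (log2 change -1.05 ± 0.17, SE; adjusted p = 0.00141). alphaTub85E, an alpha-tubulin isoform, averaged 23.2 ± 9.18 in chm/+ and 67.5 ± 15.9 in wild type (SD; log2 change -1.13, adjusted p = 0.000877). CG7271 and term, which lie next to each other among the measured genes, changed by -1.15 (adjusted p = 4.42e-06) and -1.01 (adjusted p = 7.85e-05).

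The remaining genes among the 20 lowest were called with smaller margins or have no role given here. CG14608 (now thw), CG4962, CG6283, CG30101 (Vajk4), CG31874 (Fum4) and CG1941 had log2 changes of -1.01, -1.15, -1.11, -0.92, -0.93 and -0.83. The column sets differed for CG4962 (-1.42 in the first and -0.91 in the second) and CG1941 (-0.52 and -1.27). In the annotation CG31874 overlaps Sur, the sulfonylurea receptor gene, on the same strand, and Sur also fell (-0.65, adjusted p = 0.000987). Reads may have been shared between these genes, and whether their exons overlap was not examined. CG9505 (Nepl4), of the neprilysin-like peptidases, had a log2 change of -1.17 (adjusted p = 0.0413; -0.87 in the first column set and -1.42 in the second), and its call was lost when any of 14 libraries was left out in turn, with an adjusted p of up to 0.141. CG34431 (-0.91, adjusted p = 0.0225) lost its call without CHMy2, CHMy3, 2uy4 or 2uy5 (adjusted p up to 0.0585).

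**Figure D3:**
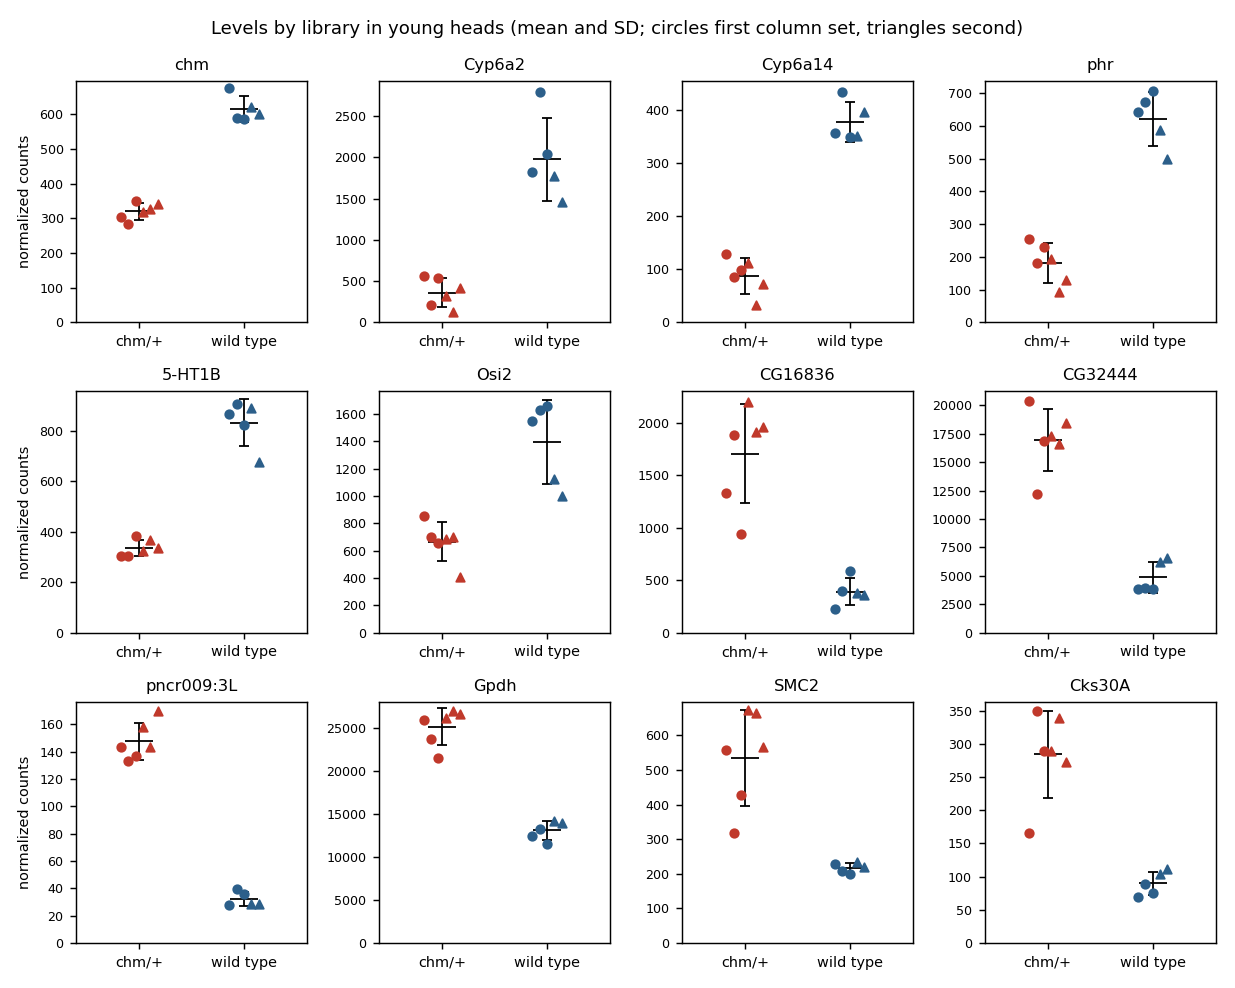
Normalized counts (y axis, from 0) of 12 called genes in each young library, chm/+ in red on the left of each panel and wild type in blue on the right, with the mean and SD in black, circles for the first column set and triangles for the second. In chm, Cyp6a2, phr and 5-HT1B every chm/+ point lies under every wild-type point, and in CG16836, CG32444 and Gpdh every chm/+ point lies above.

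Of the genes that rose, the largest log2 change was that of CG16836 (FBgn0040735; now BomT2), a gene of the Bomanins, short secreted peptides induced by Toll signalling in the fat body. It had 939.9, 1900.3 and 2203 normalized counts (lowest, median, highest) in chm/+ heads and 227, 393, 591, 379 and 363 in wild-type heads. All chm/+ libraries exceeded all wild-type ones, and the log2 change was 2.09 ± 0.26 (SE; adjusted p = 7.85e-05; 1.78 in the first column set and 2.40 in the second). The list of 41 measured antimicrobial and immune genes, which does not hold CG16836, had 0 called members and a median log2 change of 0.04. In it IM23, a further Bomanin, stood at -1.51 (adjusted p = 0.0725). Of the 41, 5 had an unadjusted limma p under 0.05, where 15.3% of all genes tested had such a p. The summed level of the 5 measured haemocyte markers ran from 11693 to 17364 in chm/+ libraries, against 9530.0 to 13572 in wild-type libraries, and their part in the CG16836 result was not tested.

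CG32444 (FBgn0043783) had 12243, 17079.5 and 20398 normalized counts (lowest, median, highest) in chm/+ heads and 3797, 3885, 3838, 6178 and 6584 in wild-type heads. The groups were well apart, and wild-type libraries of the second column set lay above those of the first (log2 change 1.83 ± 0.16, SE; adjusted p = 1.30e-06; 2.07 in the first set and 1.45 in the second). pncr009:3L (FBgn0062928), annotated as the hairpin RNA gene hpRNA:CR33940, had the smallest p of all genes. It had 133, 144 and 169.6 normalized counts (lowest, median, highest) in chm/+ heads and 27.9, 39.3, 35.7, 28.8 and 28.2 in wild-type heads, which is 1.80 ± 0.11 on the log2 scale (SE; adjusted p = 6.90e-09). The lowest chm/+ library lay far above the highest wild-type one. CG32984, also at low levels, averaged 51 ± 10.8 in chm/+ and 10.1 ± 3.52 in wild type (SD; log2 change 1.41, adjusted p = 4.93e-06).

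A pair of cell-division genes and a Wnt antagonist were among the genes that rose. SMC2 (FBgn0027783), a core ATPase of condensin, the complex that compacts chromosomes, had 317, 561 and 674 normalized counts (lowest, median, highest) in chm/+ heads and 228, 208, 198, 234 and 219 in wild-type heads. The chm/+ libraries were all higher but also far more scattered, and the log2 change was 1.20 ± 0.15 (SE; adjusted p = 0.000101; 0.96 in the first column set and 1.43 in the second). SMC2 was the only called gene of 16 measured condensin and cohesin genes, whose median log2 change was -0.002. Cks30A (FBgn0010314), a small subunit that binds cyclin-dependent kinases, had 165, 289 and 349.6 in chm/+ heads and 69.7, 88, 74.9, 104 and 111 in wild-type heads, without overlap (log2 change 1.50 ± 0.18, SE; adjusted p = 4.94e-05). Of 19 measured replication licensing and origin genes, 0 were called in limma, and 4 had an unadjusted p under 0.05, all of them higher. Over all genes tested, 15.3% had such a p. naked cuticle (nkd, FBgn0002945), an intracellular antagonist of Wingless signalling, had 1557, 1772 and 2068 in chm/+ heads and 873, 913, 804, 724 and 844 in wild-type heads. Its groups were compact and apart, with a log2 change of 1.12 ± 0.09 (SE; adjusted p = 2.46e-07).

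Single genes of metabolic enzymes rose. Gpdh (FBgn0001128), the cytosolic glycerol-3-phosphate dehydrogenase that links glycolysis to lipid synthesis, had 21532, 26089 and 27089.8 normalized counts (lowest, median, highest) in chm/+ heads and 12494, 13320.5, 11546, 14157 and 14029 in wild-type heads. The lowest chm/+ library stood well above the highest wild-type one, and the log2 change was 0.94 ± 0.09 (SE; adjusted p = 2.52e-06), nearly equal in the column sets at 0.93 and 0.92. It was the only called member of 15 measured glycolytic genes, whose median was 0.06. CG10924 (Pepck2), of the phosphoenolpyruvate carboxykinases of gluconeogenesis, averaged 2083 ± 922 in chm/+ and 798 ± 151 in wild type (SD; log2 change 1.28, adjusted p = 0.00852). CG18673 (CAH5), a carbonic anhydrase, averaged 998 ± 407 in chm/+ and 286 ± 112 in wild type (SD; log2 change 1.70, adjusted p = 0.00686). Its groups overlapped, CHMy11 lying at 325 under the 445 of 2uy5, and the change was 2.36 in the first column set against 0.94 in the second. Its call was lost with the young libraries alone, with the second column set alone and without CHMy2 and 2uy3. Tsp42Er (FBgn0033139), a tetraspanin membrane protein, had 57.9, 87.5 and 131 in chm/+ heads and 9.79, 6.57, 11.1, 25.4 and 35.2 in wild-type heads, without overlap (log2 change 1.74 ± 0.33, SE; adjusted p = 0.00609). The other genes among the 20 highest, SIP2 (now salto), CG11349, CG30384 and CG12911, had log2 changes of 1.24, 1.21, 1.05 and 1.02, with 0.96 in the first column set and 1.62 in the second for SIP2, and CG12911 lost its call without any 1 of 9 libraries (adjusted p up to 0.125).

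Conjugating detoxification enzymes leaned towards higher levels in young chm/+ heads. The products of glutathione S-transferase and UDP-glycosyltransferase genes attach glutathione or sugar to toxins. Of 41 such genes measured, 6 were called higher and 1 lower, 36 had a positive change, and the median log2 change was 0.18. Over all genes 0.895% were called higher and 0.559% lower, with a median of -0.001. Ugt37b1 (FBgn0026755) had 296, 564 and 846 normalized counts (lowest, median, highest) in chm/+ heads and 129.7, 166, 118, 269 and 217 in wild-type heads. Its groups did not overlap, and the log2 change was 1.54 ± 0.24 (SE; adjusted p = 0.000944; 1.82 in the first column set and 1.11 in the second). CG5999 (Ugt37A3), which is not among the 41 and is named for the size of its change, averaged 178 ± 72.5 in chm/+ and 61.2 ± 20.1 in wild type (SD; log2 change 1.30, adjusted p = 0.0102). Ugt86Da rose by less, with a log2 change of 0.55 (adjusted p = 0.00596).

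Among the glutathione S-transferases GstE1 averaged 1329 ± 95.9 in chm/+ and 1015 ± 59 in wild type (SD; log2 change 0.38, adjusted p = 0.00085). The other called members, outside the naming rule and taken up after their values were seen, were GstE5 (log2 change 0.76, adjusted p = 0.00609), Ugt35a (0.81, adjusted p = 0.00605), GstT2 (0.42, adjusted p = 0.0236) and GstE11, which fell (-0.45, adjusted p = 0.0471). Genes of these clusters have close copies, so reads could be split between them. The 70 measured P450 genes had 1 called higher, Cyp309a1 (log2 change 0.45, adjusted p = 0.0438), and 2 called lower, Cyp6a2 and Cyp6a14, while 47 had a positive change (median 0.14). Over all genes 0.895% were called higher and 0.559% lower. The column-set term raised the P450 counts to 14 higher and 2 lower, and the shares over all genes to 2.65% and 1.35%. With column totals set equal, or with quantile normalization, 0 P450 genes were higher and 2 lower. The count of P450 genes higher therefore depended on the treatment of the libraries. Cyp309a1 itself lost its call without any 1 of 13 libraries (adjusted p up to 0.166).

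Fat body expresses many of these enzymes, and the summed level of the 9 measured fat body markers ran from 501134 to 888027 normalized counts in chm/+ libraries, against 362145 to 653755 in wild-type libraries. None of the 9 was called, 6 had a positive change, and their median log2 change was 0.08. Lsp2, a storage protein of the adult fat body, had the highest, at 0.72 (adjusted p = 0.380). It averaged 335370 ± 101510 in chm/+ and 200790 ± 51955 in wild type (SD), so the sums rest largely on this 1 gene. Yp1, Yp2 and Yp3 had log2 changes of -0.53, -0.45 and -0.03. The part of fat body content in the detoxification results was not tested. The sums of neuronal markers (92664 to 131995 in chm/+ against 102436 to 121644 in wild type) and of photoreceptor markers (1461560 to 1780600 against 1482590 to 1862640) overlapped throughout.

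**Figure D4:**
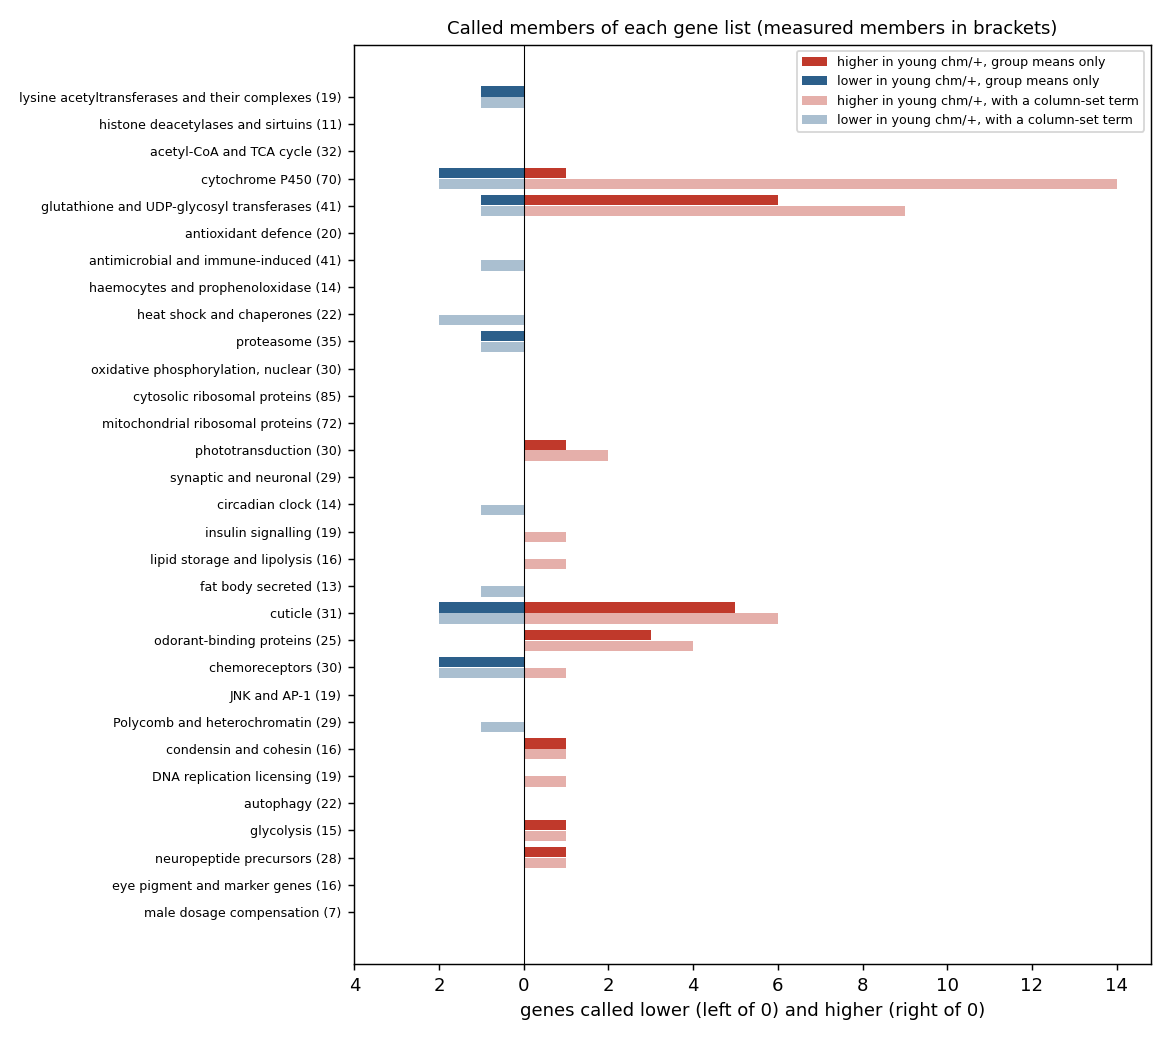
For each gene list, with its number of measured members in brackets, bars count members called lower (left of 0, blue) and higher (right of 0, red) in young chm/+ against young wild-type heads, dark with group means only and pale with a term for the column set. In the dark bars the glutathione S-transferase and UDP-glycosyltransferase list has 6 higher and 1 lower, and the cuticle list 5 higher and 2 lower. Most lists have none in the dark bars.

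Genes of the cuticle and of chitin changed in both directions. serp (FBgn0260653) and verm (FBgn0261341), neighbouring genes for chitin deacetylases that modify the chitin of cuticle and tracheae, both rose. verm had 387, 451 and 577 normalized counts (lowest, median, highest) in chm/+ heads and 242, 198, 220.3, 186 and 200.2 in wild-type heads (log2 change 1.08 ± 0.14, SE; adjusted p = 0.000132). serp had 219.8, 282 and 322 in chm/+ heads and 112, 141, 154, 124 and 119 in wild-type heads (log2 change 1.01 ± 0.13, SE; adjusted p = 0.000157). Neither gene's groups overlapped. Of 31 measured cuticle protein genes, 5 were called higher and 2 lower, with a median log2 change of 0.00. Over all genes 0.895% were called higher and 0.559% lower. The 5 include Lcp65Ag1, Lcp65Ag2 and Lcp65Ag3, near-identical copies between which reads may be shared, so they may not be separate results.

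Among the cuticle genes called lower, Cpr62Bb averaged 398 ± 47 in chm/+ and 579 ± 19.2 in wild type (SD; log2 change -0.53, adjusted p = 0.00118), and TwdlG, of the Tweedle family of chitin-binding proteins, changed by -0.54 (adjusted p = 0.00609). Among those called higher, Cpr65Au averaged 6594 ± 1121 in chm/+ and 4050 ± 859 in wild type (SD; log2 change 0.71, adjusted p = 0.00583). It lies in a cluster on 3L with Lcp65Ag1, Lcp65Ag2 and Lcp65Ag3, which had log2 changes of 0.82, 0.81 and 0.73. These are near-identical copies, so their separate values are uncertain. obst-E, a chitin-binding protein gene outside the naming rule and taken up after its value was seen, had a log2 change of 0.85 (adjusted p = 0.0117).

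A few genes of the eye and of the sensilla were also called higher. Cry (FBgn0005664), the gene of the lens crystallin and not the cryptochrome gene cry, averaged 292 ± 64.2 in chm/+ and 124 ± 29.8 in wild type (SD; log2 change 1.14, adjusted p = 0.000866), with 112, 153, 157, 113 and 87.0 in the wild-type libraries and 178, 309.7 and 343 as lowest, median and highest in chm/+. It was the only called gene of 30 measured phototransduction and eye genes (median 0.01), and ninaE, the main opsin, had a log2 change of -0.06 (adjusted p = 0.889). Pdh, a retinol dehydrogenase of the retina outside the naming rule and taken up after its value was seen, averaged 33529 ± 4798 in chm/+ and 20078 ± 1121 in wild type (SD; log2 change 0.73, adjusted p = 0.00213). Odorant-binding protein genes encode carriers of odours in the fluid of sensilla. Of 25 measured, 3 were called higher (12%) and 0 lower, with a median of 0.21. Over all genes tested 1.45% were called and 0.895% were called higher. With column totals set equal, or with quantile normalization, 2 of the odorant-binding protein genes were called higher. Obp56a (log2 change 0.70, adjusted p = 0.0043) and Obp83cd (0.69, adjusted p = 0.0091) were 2 of the 3. Obp83g (0.76, adjusted p = 0.0449) was the other, and it lost its call when any of 15 libraries was left out in turn (adjusted p up to 0.111).

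Single members of other lists were called, where 1.45% of all genes tested were called. fln, which encodes the flight muscle protein flightin, averaged 357 ± 49.3 in chm/+ and 208 ± 40.6 in wild type (SD; log2 change 0.75, adjusted p = 0.0102). It was the only called gene of 15 measured muscle markers, whose summed level ran from 60088 to 86549 in chm/+ libraries, against 64413 to 94036 in wild-type libraries. Their median log2 change was -0.45 in the first column set and 0.09 in the second, and their part in the fln result was not tested. Of 28 measured neuropeptide genes 1 was called, CCHa2, whose peptide links nutrition to insulin release in larvae (19809 ± 1684 in chm/+ against 14090 ± 692 in wild type, SD; log2 change 0.49, adjusted p = 0.0389), and that call was lost without any 1 of 11 libraries (adjusted p up to 0.0993). Of 35 measured proteasome genes 1 was called, Rpt3R, a paralogue of the ATPase subunit Rpt3 (-0.55, adjusted p = 0.037), which lost its call without any 1 of 9 libraries (adjusted p up to 0.147). The list as a whole leaned the other way, with 31 of 35 positive and a median log2 change of 0.11. At an unadjusted limma p under 0.05 it held 9 genes higher and 1 lower, where 15.3% of all genes tested had such a p.

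The gene lists closest to the known roles of chm had almost no called members, where 1.45% of all genes tested were called. At that share, lists of 11 to 32 genes would hold few calls in any case. Of 19 measured lysine acetyltransferase genes, chm alone was called, with a median log2 change of -0.10. Of 11 deacetylase and sirtuin genes, 29 Polycomb and heterochromatin genes, 19 JNK and AP-1 genes and 32 acetyl-CoA and citrate cycle genes, 0 were called at an adjusted p under 0.05 in limma, with medians of -0.08, -0.13, -0.02 and 0.01. At an unadjusted limma p under 0.05, which 15.3% of all genes tested had, these lists held 0, 8, 2 and 5 genes. The 8 of the Polycomb and heterochromatin list were all lower. With the column-set term 1 gene of these lists was called, the Polycomb gene calypso, which was lower. The replication gene dpa had a log2 change of 0.45 (adjusted p = 0.0687) and was called higher with that term.

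The ribosomal protein and oxidative phosphorylation lists had no called member, where 1.45% of all genes tested were called, a share at which few calls would fall in such lists. In limma 0 of 85 cytosolic ribosomal protein genes, 0 of 72 mitochondrial ribosomal protein genes and 0 of 30 oxidative phosphorylation genes were called, with 1, 4 and 3 at an unadjusted p under 0.05. Of 22 heat shock genes 0 were called (median -0.23), with 8 at an unadjusted p under 0.05, all lower, and Hop and Hsp83 were called lower with the column-set term. Of 14 clock genes 0 were called, with 3 at an unadjusted p under 0.05, and cyc was called lower with that term. The lists of 20 antioxidant, 19 insulin signalling, 16 lipid storage, 22 autophagy, 16 eye pigment and 7 dosage compensation genes held 0 called members in limma, with 3, 4, 1, 3, 1 and 1 at an unadjusted p under 0.05. Over all genes, 1506 had an unadjusted p under 0.05 (15.3%), so genes with smaller changes may lie under the threshold of the test at this number of libraries.

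The young differences were next read at midlife, in 5 chm/+ and 4 wild-type libraries outside the young group means, which shared only the estimate of the spread with the young comparison. At midlife 192 genes were called (1.95%), 70 higher (0.712%) and 122 lower (1.24%). Of the 88 genes called higher in young chm/+ heads, 30 were called higher at midlife (34.1% of the 88 and 42.9% of the 70), and 83 had a positive change (94.3%, against 50.1% of all genes). Of the 55 called lower, 23 were called lower at midlife (41.8% of the 55 and 18.9% of the 122), and 52 had a negative change. No gene was called in opposite directions at the 2 ages. All midlife chm/+ libraries lay above all wild-type ones for 39 of the 88 (2.09% of all genes did), and below for 31 of the 55 (2.39% of all genes did). The changes were smaller at midlife, with a median log2 change of 0.42 over the 88 and -0.49 over the 55, against 0.69 and -0.60 in young heads, where the genes had been chosen for passing the test.

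Several of the named genes were called at midlife as well. The naming rule took 10 genes for being called at both ages, among them chm, phr, Cyp6a14, 5-HT1B, pncr009:3L, nkd, CG32444 and Gpdh. Their midlife calls were fixed by that choice and are not separate support. Other named genes were not called at midlife, such as term (-0.50, adjusted p = 0.0695) and SIP2 (0.29, adjusted p = 0.532). chm had a midlife log2 change of -0.84 (adjusted p = 8.05e-07), and phr of -1.25 (adjusted p = 0.000626). Cyp6a2, with a mean of 434 in chm/+ and 1581 in wild type, had -1.83 (adjusted p = 0.00135), and Cyp6a14 had -1.46 (adjusted p = 0.000633). 5-HT1B had -0.95 (adjusted p = 0.000266), and Ir54a stood lower still than in young heads, at -2.35 (adjusted p = 7.62e-07), although the test of the difference between ages gave an adjusted p of 0.0917. Among the genes that rose, pncr009:3L had 1.65 (adjusted p = 1.09e-07), nkd 1.25 (adjusted p = 2.01e-07), CG16836 1.84 (adjusted p = 0.000633), CG32444 1.32 (adjusted p = 0.000179) and Gpdh 0.58 (adjusted p = 0.00127). Cks30A had 1.74 at midlife (adjusted p = 2.53e-05).

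A direct test of the difference between the genotype changes at the 2 ages called 35 genes (0.356%), 3 of which were called in young heads. SMC2 rose more at midlife, with 1869 ± 312 normalized counts in chm/+ and 296 ± 33.4 in wild type (SD), a log2 change of 2.59 against 1.20 in young heads (difference 1.39 ± 0.23, SE; adjusted p = 0.00826). Tsp42Er had a midlife mean of 139 in chm/+ and 208 in wild type, a log2 change of -0.58 against 1.74 in young heads (difference -2.31 ± 0.49, SE; adjusted p = 0.0433). CG5535 had a midlife log2 change of -0.17 against 0.44 in young heads, where it averaged 444 ± 22.5 in chm/+ and 324 ± 28.3 in wild type (difference -0.62, adjusted p = 0.0169). serp (midlife log2 change 0.48, adjusted p = 0.129) and CG18673 (0.31, adjusted p = 0.678) were called in young heads and not at midlife, but were not called for the difference between ages (adjusted p = 0.557 and 0.491).

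**Figure D5:**
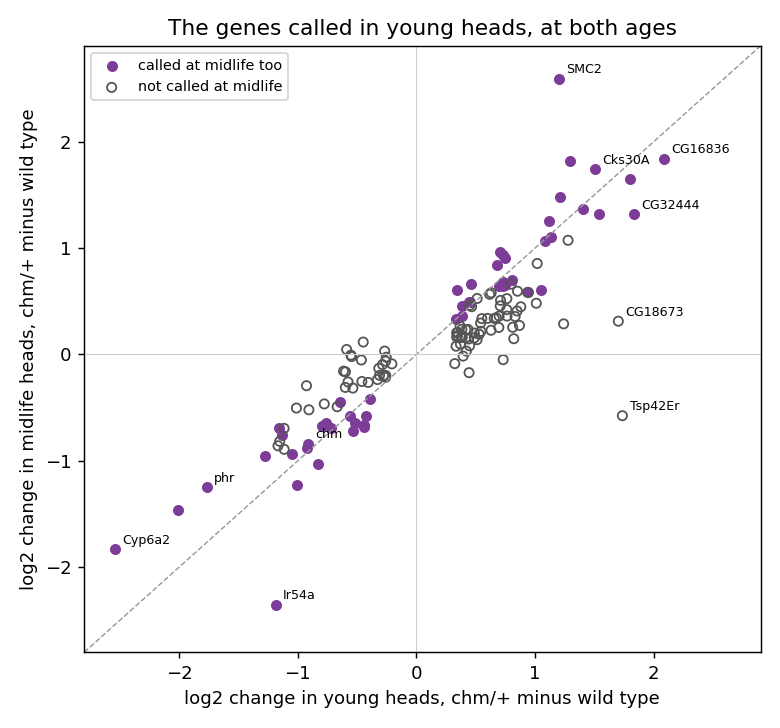
Each point is 1 of the 143 genes called in young heads, with its log2 change in young chm/+ minus wild-type heads on x and in midlife chm/+ minus wild-type heads on y; the dashed line marks equal change. Filled points are called at midlife too, and nearly all points share the sign of their young change, with SMC2 above the line and Tsp42Er below 0 on y.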

How the data were processed

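The authors' deposited table gives normalized counts, a signal adjusted to a common library size rather than whole reads. Per the submitters' processing notes, TopHat2 2.0.5 and edgeR (no version named) were used with build BDGP5. The counter, annotation, strand use and any filter on low counts are unknown from the sources used here. Only 0.29% to 2.89% of low values repeated within a young library, so whole reads were not recovered, depth is unknown, and no count model or counting interval was used. Columns name a group but not a listed sample, so libraries carry their column names.

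limma 3.58.1 (R 4.3.3) was run on log2(value + 14.48) of the 20 libraries, with 4 group means, moderated variances that follow a mean trend, and two-sided Benjamini-Hochberg adjusted p over 9831 genes. A minimum of 1 CPM in 4 libraries removed no gene. The script was tested on simulated data. No batch is labelled, so column sets are a description of the table's order. The reference annotation is of a later build, so it gave only names, overlaps and gene order, and no coordinates or sequences are printed.

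Genes and lists were chosen with earlier results of these data known. Named were chm, the 20 highest and 20 lowest log2 changes called, up to 3 called members per list, the 10 smallest p among genes called at both ages, and up to 5 among those called for the difference between ages. Alternatives were other scalings, addends, filters, variance models, column-set terms, single sets, a replicate block and leaving out libraries.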

Additional observations from a re-analysis of the deposited data

Results flagged for a closer look

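SMC2 was the clearest of 3 called genes whose genotype change differed between ages by the interaction test, with a midlife minus young difference of 1.39 on the log2 scale (adjusted p = 0.00826 in limma). The difference was -2.31 for Tsp42Er (adjusted p = 0.0433) and -0.62 for CG5535 (adjusted p = 0.0169).

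In 3 of 106 checks of a named gene within a young group, a single library stood apart from its group by Dixon's criterion at 95%, a rate that chance alone gives in about 1 of 20 groups. Obp83g was at 17.2 normalized counts in the wild-type library 2uy4, against 31.5 to 36.4 in the other wild-type libraries. CG31874 was at 25.1 in the chm/+ library CHMy4, against 6.28 to 11.6 in the other chm/+ libraries. Ir76a was at 615 in 2uy4, against 472 to 510.4 in the other wild-type libraries.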

How the results depend on the processing

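chm remained called lower under every alternative, between -0.94 and -0.88 when single libraries were left out, and none of the 53 named genes changed direction under any setting run. Calls were lost for 38 of the 53 with the second column set alone, for 37 with the replicate block and for 24 on the same 8 libraries without it. With a column-set term 394 genes were called (261 higher, 133 lower, 121 called at both ages), and with that term in the young libraries only 890 (568 higher, 322 lower). The first set alone gave 290 (200 higher, 90 lower, 69 called for the difference between ages), and the second set alone 19 (11 higher, 8 lower, 7 at both ages, 1 for the difference). Array weights gave 3194 (1614 higher, 1580 lower, 274 at both ages, 100 for the difference). A mean of at least 5 CPM left 8151 genes, with 81 called (50 higher, 31 lower, 33 at both ages, 23 for the difference). The young libraries alone gave 100 (66 higher, 34 lower). Without CHMy2 and 2uy3, a setting chosen after seeing the data like the young-only set term, 83 were called (52 higher, 31 lower, 19 for the difference). The causes were not tested.

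Leaving out single libraries gave 91 calls (without 2uy1) to 176 (without CHMy4), with 58 to 118 higher and 33 to 64 lower, 41 (without 2uo4) to 59 at both ages, and 19 (without 2uo4) to 66 (without CHMo5) for the difference. Column totals set equal gave 71 higher and 66 lower (51.8% higher, against 61.5%). Nothing in the labels pairs the libraries by column number, and deviations of same-numbered libraries correlated at -0.407, 0.656, 0.359 and -0.524. The positive pairs lie within a column set and the negative ones across sets, so this check cannot tell pairing and set apart. A replicate block on the 8 young libraries with shared numbers gave 16 calls (10 higher, 6 lower), and the same 8 without the block gave 40 (22 higher, 18 lower). Neither fit, nor the young libraries alone, gives a count across ages. Depth is unknown, so whether it limits any gene cannot be stated.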
